A study of Rattus norvegicus with 6 samples.

Results

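Brains of newborn rats (Rattus norvegicus) were examined for genes of 2 families of growth factors that keep neurons alive and shape their connections: the neurotrophins with their Trk receptors, and the ligand GDNF (glial cell line-derived neurotrophic factor) with its receptors. The genes were taken by name from the deposited expression tables. Of 8 named genes, 7 had a row among the 30498 genes of the tables: Bdnf, Ntf3, Ntrk2, Ntrk3, Gdnf, Gfra2 and Ret. No row had the name Gfra1, and that gene was not analysed here. The pups came either from dams kept on caloric restriction (CR), which models fetal growth restriction, or from control dams. Delivery was by Caesarean section, with immediate dissection of the brain. Each group had 3 libraries of polyadenylated RNA, all labelled whole brain with no strain, sex or exact feeding scheme in the labels, and no label says whether the 3 came from separate pups or litters. The p-values below therefore set group differences against the spread between these libraries, and how far that spread is one between animals or litters is not known.

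Neurotrophins are secreted as precursors, cleaved, and bound by Trk receptors, which are tyrosine kinases of the cell surface. Brain-derived neurotrophic factor (BDNF, gene Bdnf) acts mainly through TrkB (Ntrk2), and neurotrophin-3 (Ntf3) mainly through TrkC (Ntrk3). Ligands of the GDNF family bind a co-receptor held to the membrane by a lipid anchor, and the pair then engages the tyrosine kinase RET. GDNF prefers the co-receptor made from Gfra1, and neurturin prefers the one made from Gfra2. In the brain, RET is known from midbrain dopamine neurons and motor neurons, and BDNF from neurons in which activity raises its transcription.

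Expression was given as FPKM, that is, fragments per kilobase of exon and scaled to the assigned reads of the library, so that levels of different genes can be compared per length. The reads behind each value, worked out from FPKM and exon length, came to 22161522 to 25734737 assigned reads in the CR libraries and 14030961 to 25345354 in the control libraries. Markers of brain regions differed between the groups and are needed beside every result. The summed FPKM of 50 markers of thalamus, hypothalamus, midbrain, cerebellum and hindbrain was 228, 292 and 296 in CR replicates 1 to 3 and 23.8, 36.6 and 41.0 in control replicates 1 to 3. In 49 of the 50 every CR library exceeded every control library, which held for 26.1% of all genes tested. Some of the 50 averaged below the 0.5 FPKM set for testing, so the 2 shares cover unlike sets of genes. The marker lists were chosen with earlier results of these data known, and their counts describe these libraries without being independent support. Of 16 hindbrain and cervical cord markers, 9 had no read in any control library although the label reads whole brain, of which 1, Hoxb1, had none in CR either, and the sum of the 16 was 79.3 FPKM in CR replicate 3 against 16.8 and 15.4 in CR replicates 1 and 2. The 10 markers of the dorsal telencephalon, the part that forms the cortex, summed to 199 to 300.4 FPKM in CR and 507 to 624 FPKM in control. Of these 10, 9 had all CR values below all control values, beside 24.3% of all genes tested. RNA of Y-linked genes was present in CR replicates 1 and 3 and in control replicate 3 only. Differences between the groups in the genes below cannot be told apart from these differences in regional markers, and in whole-tissue RNA fewer cells of a type cannot be told apart from less RNA per cell.

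Among the ligands, Bdnf was higher and Ntf3 lower in CR, and Gdnf was below the level set for testing. Bdnf (ENSRNOG00000047466) lies on chromosome 3 from 96165042 to 96215615 on the plus strand of mRatBN7.2. It was at 1.17, 1.40 and 1.28 FPKM in CR replicates 1 to 3 and at 0.270, 0.351 and 0.715 FPKM in control replicates 1 to 3, from 157, 218 and 200 reads in CR and 23, 54 and 80 reads in control. The groups did not overlap, and control replicate 3 was the highest of its group. The means were 1.28 ± 0.114 FPKM in CR and 0.446 ± 0.237 FPKM in control (SD, n = 3 each), a 2.88-fold difference. The log2 fold change, CR minus control on the scale log2(FPKM + 1), was 0.67 (SE 0.140, limma adjusted p = 0.00991). That scale understates the change of low genes, and limma-voom on the reads gave a log2 fold change of 1.62 for Bdnf (adjusted p = 0.00107). Genes were tested where their mean over the 6 libraries was at least 0.5 FPKM, and Bdnf passed that filter through its CR values, its control mean being below 0.5.

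**Figure D1:**
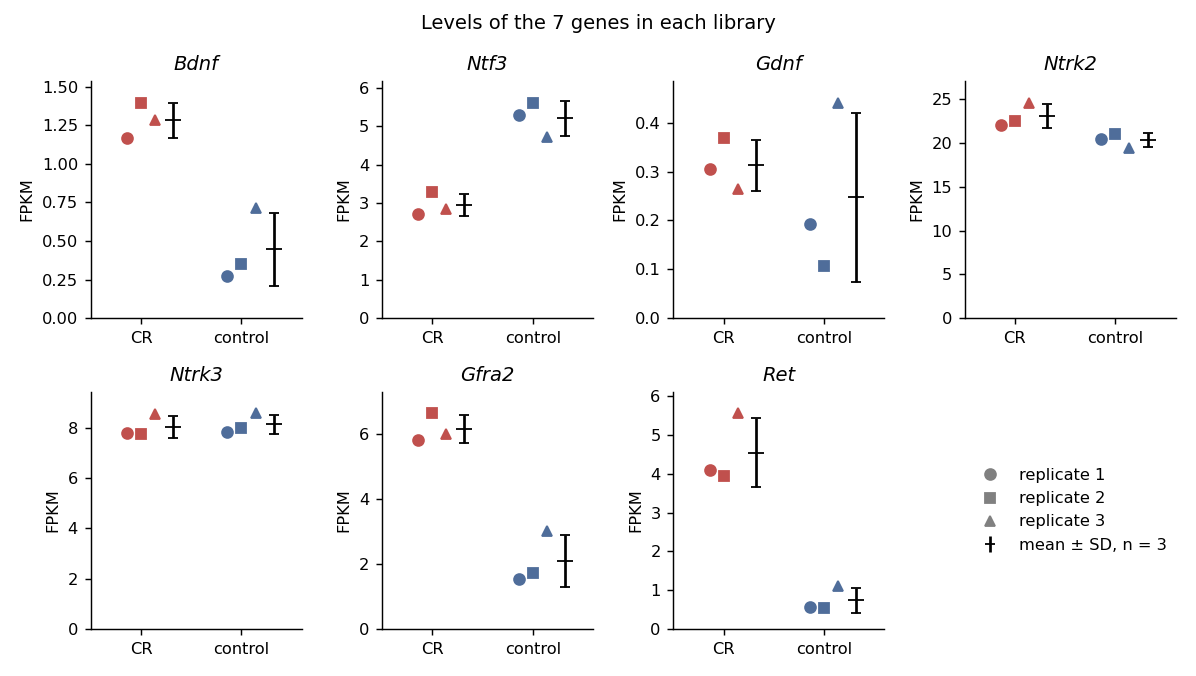
FPKM (vertical axes, each from 0) of the 7 genes in the 3 CR libraries and the 3 control libraries, with the mean ± SD beside the points. Bdnf, Gfra2, Ret and, by less, Ntrk2 were higher in all CR libraries than in any control library, Ntf3 was lower in all of them, and Ntrk3 and Gdnf overlapped between the groups.

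Ntf3 (ENSRNOG00000019716; chromosome 4 from 158914957 to 158984596, minus strand) had 2.71, 3.28 and 2.84 FPKM in CR replicates 1 to 3, against 5.28, 5.62 and 4.72 FPKM in control replicates 1 to 3. Every CR library was below every control library, and control replicate 3 was the lowest control. The means were 2.94 ± 0.295 FPKM in CR and 5.21 ± 0.452 FPKM in control (SD, n = 3 each), a 1.77-fold lower level in CR (log2 fold change -0.65, SE 0.0972, limma adjusted p = 0.00281). Between 112 and 265 reads per library lay behind these values. Gdnf (ENSRNOG00000012819; chromosome 2 from 56895010 to 56917209, plus strand), the ligand named for glial cell lines, rested on 5, 7 and 5 reads in CR replicates 1 to 3 and on 2, 2 and 6 reads in control replicates 1 to 3. Its levels were 0.306, 0.369 and 0.264 FPKM in CR and 0.193, 0.107 and 0.441 FPKM in control, and the groups overlapped. Summed over a group, 17 reads in CR correspond to 0.313 FPKM (exact Poisson 95% interval 0.182 to 0.501) and 10 reads in control to 0.234 FPKM (0.112 to 0.431). These intervals cover counting error only, and no difference in Gdnf was detectable at this depth. Gdnf was tested where no filter on low values was set (log2 fold change 0.08, limma adjusted p = 0.633).

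Promoter windows of RefSeq, on the assembly GRCr8 and on the strand of each gene, are shown for Bdnf, for Ntf3 as the gene that fell and for Ret as the gene with the largest rise. Each holds 250 bases before and 50 bases after a transcript start. RefSeq gave windows for 4 of the 7 genes, with 6 windows for Bdnf and 3 for Ntf3. The Bdnf window printed (the fourth from the 5′ side) was the only one of the 6 with TGACG, the shared core of sites for the activity-dependent factor CREB, and the first window of Ntf3 and the single window of Ret are given. Capitals mark matches, on either strand, to TGACG, to the full site TGACGTCA that contains it, to the E-box CANNTG, to the GC box GGGCGG and to the TATA motif TATAAA.
Bdnf, chr3:116637608-116637907, plus strand: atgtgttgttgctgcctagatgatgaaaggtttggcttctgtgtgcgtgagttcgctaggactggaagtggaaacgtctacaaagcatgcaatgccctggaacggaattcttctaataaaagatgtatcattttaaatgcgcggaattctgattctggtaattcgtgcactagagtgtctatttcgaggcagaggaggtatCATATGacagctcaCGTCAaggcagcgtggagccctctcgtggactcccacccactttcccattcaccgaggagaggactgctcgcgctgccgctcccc
Ntf3, chr4:160670574-160670873, minus strand: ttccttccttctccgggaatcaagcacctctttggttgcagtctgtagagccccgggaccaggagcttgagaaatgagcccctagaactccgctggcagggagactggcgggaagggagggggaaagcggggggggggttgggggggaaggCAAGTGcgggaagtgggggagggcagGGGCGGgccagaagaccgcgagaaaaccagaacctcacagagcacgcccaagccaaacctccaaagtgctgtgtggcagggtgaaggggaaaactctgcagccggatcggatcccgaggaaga
Ret, chr4:153040507-153040806, minus strand: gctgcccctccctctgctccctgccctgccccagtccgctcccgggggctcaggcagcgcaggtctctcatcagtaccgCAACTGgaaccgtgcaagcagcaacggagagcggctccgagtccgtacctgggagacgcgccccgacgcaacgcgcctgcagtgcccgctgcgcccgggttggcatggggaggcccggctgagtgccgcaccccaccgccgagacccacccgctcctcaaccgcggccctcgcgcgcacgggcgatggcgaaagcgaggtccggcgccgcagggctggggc
Of all 33469 windows of that length, 21.2% held TGACG, 1.83% the full TGACGTCA, 72.1% an E-box, 33.1% a GC box and 14.2% the TATA motif. The Bdnf window held 1 TGACG match and 1 E-box, the Ntf3 window 1 E-box and 1 GC box, and the Ret window 1 E-box. A match is a string of letters and not a measured site, and gene-level values do not separate the transcripts that start at different promoters.

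The balance of the ligand transcripts Ntf3 and Bdnf differed between the groups, with relatively more Bdnf in every CR library. The log2 ratio of Ntf3 to Bdnf within a library, with 0.1 FPKM added to each gene, was 1.14 ± 0.0438 in CR and 3.36 ± 0.699 in control (SD, n = 3 each). The difference of -2.22 had an exact two-sided permutation p of 0.10, which is the smallest that 3 against 3 libraries allow, and an adjusted p of 0.10 over the 3 ratios compared. The CR libraries lay close together in this ratio, whereas control replicate 3, at 2.56, stood below control replicates 1 and 2, at 3.86 and 3.66. The size of the difference depends on the amount added, at -1.32 with 1 FPKM and -2.46 on whole reads, with a fraction of a read added in place of FPKM.

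Neither Trk receptor gene passed the threshold, and the ratio of TrkC to TrkB transcripts was lower in every CR library than in any control library. Ntrk2 (ENSRNOG00000018839; chromosome 17 from 5559043 to 5869136, minus strand) was at 22.1, 22.5 and 24.6 FPKM in CR replicates 1 to 3, against 20.5, 21.0 and 19.4 FPKM in control replicates 1 to 3. All CR values were above all control values, at 23.1 ± 1.37 FPKM in CR and 20.3 ± 0.807 FPKM in control (SD, n = 3 each), but the log2 fold change of 0.17 (SE 0.0602) had a limma adjusted p of 0.0598. Of 17 alternative fits, limma-voom on reads was the only one in which Ntrk2 passed (0.18, adjusted p = 0.0309). Ntrk2 makes a form with the kinase and truncated forms, which are abundant in astrocytes, and values per gene do not separate them. In the same libraries 7 of 8 astrocyte markers had all CR values above all control values, beside 26.1% of all tested genes. The astrocyte markers summed to 339 to 381 FPKM in CR and 191 to 232 FPKM in control, and the part of astrocytes in the Ntrk2 values was not tested. Ntrk3 (ENSRNOG00000018674; chromosome 1 from 132132849 to 132503286, minus strand) was at 7.80, 7.75 and 8.56 FPKM in CR and at 7.86, 7.99 and 8.58 FPKM in control. The groups overlapped (8.03 ± 0.456 FPKM in CR and 8.14 ± 0.387 FPKM in control, SD, n = 3 each; log2 fold change -0.02, SE 0.0710, limma adjusted p = 0.871). The log2 ratio of Ntrk3 to Ntrk2 was -1.51 ± 0.0189 in CR and -1.31 ± 0.120 in control, with no overlap (difference -0.20, exact permutation p = 0.10, adjusted p = 0.10 over the 3 ratios). Without control replicate 3, the control with the highest ratio at -1.17, the difference was -0.13.

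Among the 6 genes tested here, the receptors for GDNF ligands had the largest log2 fold changes on the scale log2(FPKM + 1). With limma-voom on the reads Gfra2 and Bdnf were nearly equal, at 1.61 and 1.62. Gfra2 (ENSRNOG00000014010; chromosome 15 from 45941828 to 46033714, plus strand), the neurturin co-receptor, was at 5.80, 6.63 and 6.0 FPKM in CR replicates 1 to 3 and at 1.53, 1.73 and 3.02 FPKM in control replicates 1 to 3. The groups did not overlap, and control replicate 3 was again the control nearest to CR. The means of 6.14 ± 0.435 FPKM in CR and 2.09 ± 0.805 FPKM in control (SD, n = 3 each) differed 2.94-fold (log2 fold change 1.24, SE 0.171, limma adjusted p = 0.00223). Ret (ENSRNOG00000014751; chromosome 4 from 151326431 to 151368176, minus strand), the shared signalling receptor, was at 4.10, 3.95 and 5.56 FPKM in CR and at 0.555, 0.530 and 1.12 FPKM in control. CR replicate 3 was the highest of all 6 libraries and control replicate 3 the highest control. The means of 4.54 ± 0.888 FPKM in CR and 0.734 ± 0.331 FPKM in control (SD, n = 3 each) differed 6.19-fold (log2 fold change 1.68, SE 0.168, limma adjusted p = 0.000813; with limma-voom on the reads the Ret log2 fold change was 2.71). By log2 fold change Ret ranked 72 and Gfra2 172 from the top of 15247 tested genes, Bdnf 780 from the top and Ntf3 337 from the bottom. These ranks are on the scale log2(FPKM + 1), which understates the change of low genes. The log2 ratio of Ret to Gfra2, chosen after the data were seen in place of ratios with Gfra1, was -0.44 ± 0.314 in CR and -1.40 ± 0.119 in control. These ratios did not overlap either (difference 0.96, exact permutation p = 0.10, adjusted p = 0.10 over the 3 ratios), and the difference was 0.44 with 1 FPKM added and 1.08 on whole reads.

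Of the 6 genes tested, Bdnf, Gfra2 and Ret (3) passed as higher in CR, Ntf3 (1) passed as lower, and Ntrk2 and Ntrk3 (2) did not pass. Over all 15247 genes tested, 5173 (33.9%) passed, 17.7% as higher and 16.2% as lower, and the 4 of 6 called here are to be read against that background. Leaving out CR replicate 2 left 3243 genes past the threshold, and leaving out CR replicate 3 left 3339. Groups that do not overlap are likewise common, at 50.3% of tested genes (26.1% with all CR values above all control values and 24.3% with all below). Of the 7 genes with a row, 4 had all CR values above, 1 had all below and 2 overlapped.

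Per length, Ntrk2 had the highest level of the 7 genes in both groups and Gdnf the lowest mean. In CR the means ran from Ntrk2 at 23.1 FPKM through Ntrk3 at 8.03, Gfra2 at 6.14, Ret at 4.54, Ntf3 at 2.94 and Bdnf at 1.28 to Gdnf at 0.313 FPKM, and no 2 neighbours in that order had overlapping values. In control Ntf3 took the third place at 5.21 FPKM, ahead of Gfra2 at 2.09 FPKM. Ret at 0.734, Bdnf at 0.446 and Gdnf at 0.247 FPKM followed in control, and there Ret overlapped with Bdnf and Bdnf with Gdnf.

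Other genes of both families were mostly higher in CR where they passed, and levels below are means ± SD over 3 libraries in each group. In the neurotrophin list 6 of 9 genes were tested, with 4 up in CR, 1 down and 1 not past (median log2 fold change 0.46, against 0.0096 over all tested genes). Over all tested genes 33.9% passed, 17.7% as higher in CR and 16.2% as lower, and these counts are to be read against that background. Ngfr, the p75 receptor that binds all neurotrophins, was at 3.46 ± 0.859 FPKM in CR and 1.83 ± 0.417 FPKM in control (log2 fold change 0.65, limma adjusted p = 0.0229). Sorcs3 (5.47 ± 0.630 FPKM in CR and 3.60 ± 0.410 FPKM in control, adjusted p = 0.0118) and Sorcs2 (7.73 ± 1.38 FPKM in CR and 5.30 ± 0.558 FPKM in control, adjusted p = 0.0269) encode sorting receptors related to sortilin, as does Sorcs1 (8.37 ± 0.421 FPKM in CR and 5.87 ± 0.472 FPKM in control, adjusted p = 0.00534), which was named after its values were seen. Sorl1, another gene of the sortilin family, was lower (3.63 ± 0.577 FPKM in CR and 5.41 ± 0.132 FPKM in control, adjusted p = 0.0114). Sort1, the gene of sortilin itself, was the 1 not past (log2 fold change -0.18, limma adjusted p = 0.0655). It was at 18.9 ± 1.17 FPKM in CR and 21.6 ± 1.15 FPKM in control, with every CR value below every control value. The count of 4 higher genes was 2 without CR replicate 2, 1 without CR replicate 3 and 2 without control replicate 2. Ngfr no longer passed without CR replicate 1 (adjusted p = 0.0725), CR replicate 3 (0.0823), control replicate 2 (0.0675) or control replicate 3 (0.0538), or when low genes were kept (0.0593). Sorcs2 no longer passed without CR replicate 2 (0.0858), CR replicate 3 (0.0808), control replicate 1 (0.0743), control replicate 2 (0.0715), or when low genes were kept (0.0604), and Sorcs3 did not pass without CR replicate 2 or CR replicate 3 (0.0514 each).

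Of 8 other genes of the GDNF family and its alternative receptors, 5 were tested, with 3 up in CR and 2 not past (median log2 fold change 0.58). Among all tested genes 33.9% passed, and 17.7% passed as higher in CR. Gfra4, the co-receptor gene for persephin, was at 2.37 ± 0.271 FPKM in CR and 0.892 ± 0.319 FPKM in control (log2 fold change 0.84, limma adjusted p = 0.00453). Nrtn, which encodes neurturin, the ligand that prefers the Gfra2 product, was at 1.55, 2.43 and 2.67 FPKM in CR replicates 1 to 3 and at 1.17, 1.18 and 0.485 FPKM in control replicates 1 to 3 (log2 fold change 0.73, adjusted p = 0.0259), from 6 to 46 reads per library. Its groups did not overlap, and it no longer passed without CR replicate 2 (0.0897) or CR replicate 3 (0.0903), with quantile normalization (0.0533) or with no filter on low values (0.0624). Sdc3, a heparan sulfate proteoglycan that binds GDNF, was at 106 ± 4.95 FPKM in CR and 70.1 ± 5.04 FPKM in control (0.58, adjusted p = 0.00102). Ncam1, the adhesion molecule that can serve as a GDNF receptor without RET, had a log2 fold change of -0.0017 (adjusted p = 0.985).

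**Figure D2:**
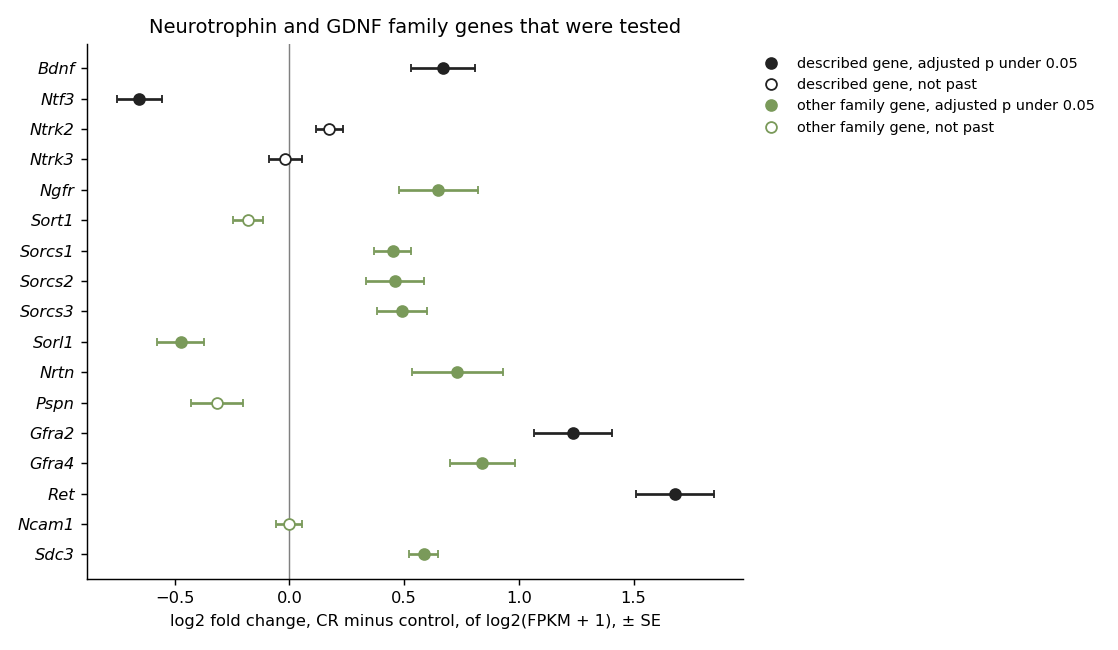
Log2 fold change, CR minus control, of log2(FPKM + 1) with its SE (horizontal axis) for the tested neurotrophin and GDNF family genes. Filled points passed an adjusted p of 0.05, and black points are the genes described here, from -0.65 for Ntf3 to 1.68 for Ret.

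Processing enzymes, signalling adaptors and target genes were then counted. Of 11 tested genes for enzymes that cleave neurotrophin precursors, with their inhibitors, 4 passed as higher in CR, 0 as lower, and 7 missed the threshold (median log2 fold change 0.11). Among all tested genes 17.7% passed as higher in CR and 33.9% in either direction, and the 4 of 11, all higher, are to be read against both. Pcsk1, a proprotein convertase of secretory granules, was at 1.71 ± 0.212 FPKM in CR and 0.600 ± 0.211 FPKM in control (limma adjusted p = 0.00491). Pcsk2, a related convertase, was at 12.4 ± 0.747 FPKM in CR and 9.07 ± 1.44 FPKM in control (adjusted p = 0.0197), and Serpini1, which encodes the protease inhibitor neuroserpin, was at 56.6 ± 2.77 FPKM in CR and 36.0 ± 3.00 FPKM in control (adjusted p = 0.00101). The fourth was Plat, the tissue plasminogen activator that neuroserpin inhibits (32.1 ± 2.80 FPKM in CR and 24.5 ± 3.95 FPKM in control, adjusted p = 0.0384), named after its values were seen. Without CR replicate 2, CR replicate 3 or control replicate 1 the count of 4 was 2. Pcsk2 did not pass in any of these 3 fits (adjusted p = 0.0686, 0.0724 and 0.0554). Plat did not pass in these (0.0724, 0.0773 and 0.0659), without CR replicate 1 (0.115), without control replicate 2 (0.0681), with no filter on low values (0.0835), with no trend (0.0626) and with the Y-linked RNA covariate (0.0622).

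Of 31 tested adaptors and regulators of Trk, p75 and RET signalling, 4 passed as higher in CR, 8 as lower, and 19 missed the threshold (median log2 fold change -0.13). The 12 of 31 called are near the 33.9% called among all tested genes. Dok5, a docking protein of RET and TrkB signalling, was at 27.3 ± 4.43 FPKM in CR and 52.4 ± 8.27 FPKM in control (log2 fold change -0.92, limma adjusted p = 0.00342). Cblb, a ubiquitin ligase of receptor kinases, was at 6.22 ± 0.934 FPKM in CR and 11.7 ± 0.683 FPKM in control (adjusted p = 0.00158), and the adaptor gene Sh2b2 at 6.41 ± 0.241 FPKM in CR and 9.90 ± 0.989 FPKM in control (adjusted p = 0.00284). Lrig1, a membrane protein that restrains receptor kinases, was higher (7.86 ± 0.112 FPKM in CR and 4.94 ± 0.817 FPKM in control, adjusted p = 0.0061). So was the docking protein gene Frs3 (7.47 ± 0.585 FPKM in CR and 5.02 ± 0.166 FPKM in control, adjusted p = 0.00364), and Shc2 had a log2 fold change of 0.25 (adjusted p = 0.0411). The fourth higher gene, Nedd4, a ubiquitin ligase named after its values were seen, had a log2 fold change of 0.13 (adjusted p = 0.042). The count of 4 higher genes was 2 without any one of CR replicates 1, 2 and 3 or control replicate 2. Shc2 no longer passed without each of those libraries (adjusted p = 0.0924, 0.0815, 0.143 and 0.104), without control replicate 1 (0.0558), with the replicate block (0.0588), with the Y-linked RNA covariate (0.0823) and with no filter on low values (0.0615). Nedd4 no longer passed without the same 4 libraries (0.0928, 0.0972, 0.138 and 0.0905), without control replicate 1 (0.102), with median-ratio size factors (0.171), quantile normalization (0.123), no trend (0.113), the Y-linked RNA covariate (0.0862) and the replicate block (0.0906).

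Genes that BDNF, neuronal activity or RET signalling are known to induce did not all move in 1 direction, and more passed as lower than as higher. Of 15 tested genes, 2 were higher, 6 lower and 7 not past (median log2 fold change -0.22, against 0.0096 over all tested genes). Among all tested genes 33.9% passed, 17.7% as higher in CR and 16.2% as lower. Vgf, a secreted neuropeptide precursor first described as a growth factor target, was at 25.6 ± 3.05 FPKM in CR and 10.3 ± 1.43 FPKM in control (log2 fold change 1.24, limma adjusted p = 0.000632). Nptx2, a secreted pentraxin of excitatory synapses, was at 8.56 ± 1.09 FPKM in CR and 4.22 ± 0.557 FPKM in control (adjusted p = 0.00183). Arc, the cytoskeleton-associated gene of active synapses, was lower at 0.773 ± 0.232 FPKM in CR and 1.78 ± 0.468 FPKM in control (adjusted p = 0.019), as was the scaffold gene Homer1 (9.32 ± 0.557 FPKM in CR and 14.9 ± 1.17 FPKM in control, adjusted p = 0.00149). Junb, an AP-1 subunit, was at 4.67 ± 1.69 FPKM in CR and 7.69 ± 0.511 FPKM in control (adjusted p = 0.0298). The count of 6 lower genes was 3 without CR replicate 3, control replicate 1 or control replicate 2. Junb no longer passed without these (adjusted p = 0.0938, 0.0791 and 0.068), without CR replicate 2 (0.103) and when low genes were kept (0.0717), and Arc did not pass without these (0.0685, 0.0528 and 0.0566) and without CR replicate 1 (0.0602).

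Of 10 tested transcription factors and cofactors that act on the Bdnf promoters, 0 passed as higher in CR, 3 as lower, and 7 missed the threshold (median log2 fold change -0.14). Among all tested genes 16.2% passed as lower in CR and 33.9% in either direction, and the 3 of 10, all lower, are to be read against both. Mef2c, which also marks cortical neurons, was at 34.7 ± 8.65 FPKM in CR and 89.9 ± 23.3 FPKM in control (limma adjusted p = 0.00414). Creb1, which encodes CREB, was at 2.40 ± 0.410 FPKM in CR and 4.26 ± 0.604 FPKM in control (adjusted p = 0.00879). Crtc1, a coactivator of CREB, had a log2 fold change of -0.20 (adjusted p = 0.0261). Crtc1 no longer passed without CR replicate 1 (0.0765), 2 (0.0917) or 3 (0.0537), without control replicate 1 (0.0734) or 2 (0.0507), with the replicate block (0.0599) and with the Y-linked RNA covariate (0.053).

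**Figure D3:**
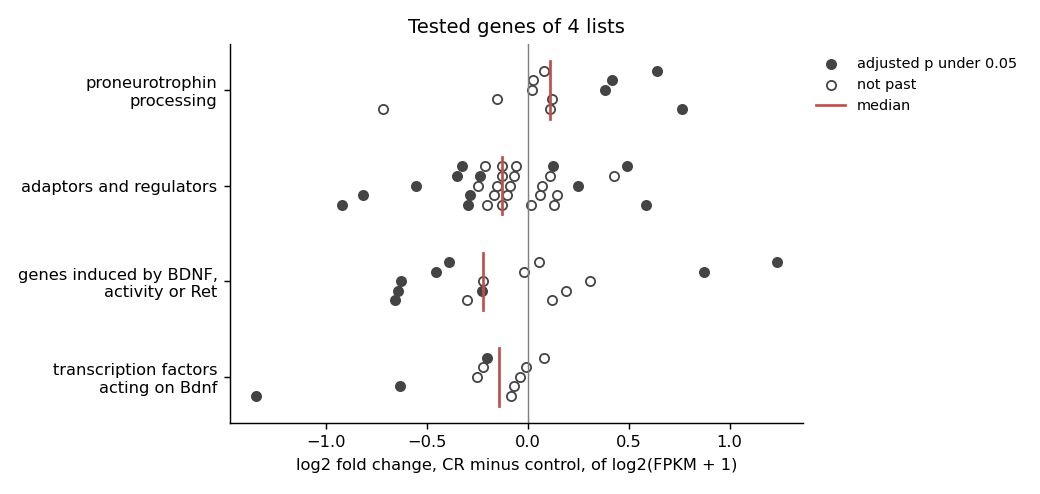
Log2 fold change, CR minus control, of log2(FPKM + 1) (horizontal axis) for each tested gene of 4 lists, with filled points past an adjusted p of 0.05 and a line at each list's median. The medians were 0.11 for processing enzymes, -0.13 for adaptors, -0.22 for induced genes and -0.14 for transcription factors.

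Markers of midbrain and motor neurons, in both of which RET is known, were set beside these values. The 12 midbrain markers, which include dopamine neuron genes, summed to 38.5 to 50.5 FPKM in CR and 1.36 to 2.78 FPKM in control, and all 12 had every CR value above every control value. Among them Slc6a3, the dopamine transporter, had 2.25 ± 0.746 FPKM in CR, 1 read in control replicate 1 and no read in control replicates 2 and 3. The 5 genes listed as motor neuron markers, which include general cholinergic genes, summed to 21.0 to 30.9 FPKM in CR and 12.9 to 13.9 FPKM in control. Their sum does not by itself identify motor neurons. Of the 5, Chat, Slc5a7 and Prph had all CR values above all control values, Isl1 overlapped, and Mnx1 had at most 1 read in any library. Microglia markers also differed, with 6 of 6 above in CR without overlap and sums of 44.0 to 50.9 FPKM in CR and 26.4 to 35.4 FPKM in control. Other cell types separated less, with 4 of 8 oligodendrocyte lineage markers and 1 of 5 endothelial and pericyte markers above without overlap. The same held for 1 of 6 choroid plexus markers, 1 of 6 meningeal markers and 26.1% of all tested genes. The part of these cells and regions in the levels of Ret, Gfra2, Bdnf and Ntf3 was not tested. Among the CR libraries, replicate 3 was highest in Ret and in the hindbrain markers (79.3 FPKM) and lowest in the midbrain markers (38.5 FPKM, against 45.4 in CR replicate 1 and 50.5 in CR replicate 2). Without CR replicate 3 the log2 fold change of Ret was 1.55 (adjusted p = 0.00489).

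**Figure D4:**
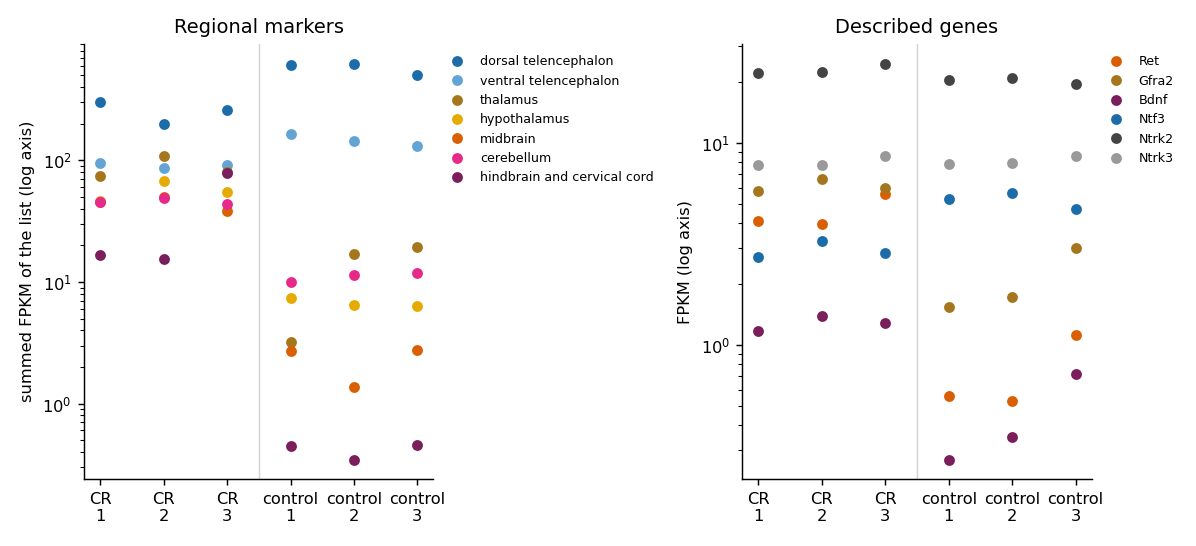
Summed FPKM of 7 regional marker lists (left, log axis) and FPKM of 6 described genes (right, log axis) in each CR and control library. Thalamic, hypothalamic, midbrain, cerebellar and hindbrain sums and Ret, Gfra2, Bdnf and Ntrk2 were higher in all CR libraries, Ntrk3 overlapped, and telencephalic sums and Ntf3 were lower in all CR libraries.

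The genes whose profile over the 6 libraries was most like each gene were found by the root mean square difference of centred log2(FPKM + 1) values among the 10931 genes that averaged 2 FPKM or more. For Ret these were Gdpd2 (difference 0.131) and Dlk1 (0.154), for Gfra2 Spock3 (0.0705) and Slc24a3 (0.0715), for Bdnf Rab26 (0.0326) and Hdac11 (0.0449), and for Ntf3 Rhou (0.0474) and Klhl28 (0.0477). Ntrk2 was nearest to Mroh1 (0.0174) and Eef1e1 (0.0203), and Ntrk3 to Actr1b (0.0119) and Glg1 (0.0195). All of these comparisons share the same 6 libraries, and on this scale a low gene can lie close to a higher gene with a smaller fold. Rab26, for example, was at 16.0 FPKM in CR and 9.64 FPKM in control, against 1.28 and 0.446 FPKM for Bdnf.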

How the data were processed

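Whole-brain polyadenylated RNA was measured in 3 CR and 3 control libraries, 1 table each. The authors deposited FPKM for each Ensembl gene and, per the file headers, its exon length. The submitters' processing notes name, without order or settings, the aligner STAR 2.7.10a, the counter featureCounts 2.0.1, and the trimmers cutadapt 1.16, Trimmomatic 0.36 and Trim Galore 0.4.4, with the build mRatBN7.2. Per the labels the library kit keeps strand, but no source used here says whether reads were counted by strand. No exon of the 7 genes overlapped an exon of another gene in the tables. Values times exon length were whole multiples (within 0.05 of a read) of 1 step per library for 100% of values, so reads and depth could be worked out, and 3 reads at 1 kb of exon correspond to 0.117 to 0.214 FPKM. Replicates differed by more than counting noise (chi-square per gene of 6.63 to 15.6).

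The 15247 genes that averaged 0.5 FPKM or more were tested with limma 3.58.1 in R 4.3.3 on log2(FPKM + 1), with group as the only term, a trend on the mean, two-sided tests and Benjamini-Hochberg adjustment at 0.05. The fit was also run on simulated data with a fixed spread and far fewer changed genes, which does not measure its accuracy on these libraries. Ratios within a library, with 0.1 FPKM added, were compared by exact permutation. Ratios with Gfra1 were planned and could not be formed. Alternatives were pseudocounts of 0.1 and 0.5, other filters and normalizations, other moderation, limma-voom on reads, a covariate for Y-linked RNA, the replicate number as a block and leaving out each library. In each list, the rule names at most 3 genes per direction, ranked by log2 fold change among those past the threshold. Sorcs1, Sort1, Plat, Nedd4, Ncam1 and Pspn were added outside it after their values were seen. The genes, lists and regional markers were chosen with earlier results of these data known. Some results of related genes are not reported here.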

Additional observations from a re-analysis of the deposited data

How the results depend on the processing

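The calls of Ret, Gfra2 and Ntf3 held in all 17 alternative fits and that of Bdnf in all 16 that tested it, since a filter at a mean of 2 FPKM removes Bdnf. Leaving out each library in turn gave log2 fold changes of 1.55 to 1.83 for Ret, 1.11 to 1.44 for Gfra2, 0.58 to 0.80 for Bdnf and -0.71 to -0.61 for Ntf3, with the highest adjusted p at 0.0423, for Bdnf without CR replicate 2. Their log2 fold changes grew in size with smaller pseudocounts, to 2.53 for Ret and 1.42 for Bdnf at 0.1. Ntrk2 passed with limma-voom on reads (0.18). Ntrk3 changed sign when libraries were left out, with log2 fold changes of -0.0587 to 0.017. The log2 difference of Gdnf, which was tested only when low genes were kept (adjusted p = 0.633), was 0.36 with a pseudocount of 0.1 and 0.0822 with 1, on 2 to 7 reads per library. The 3 ratios kept their direction under every alternative run, but with 1 FPKM added the difference was -1.32 for Ntf3/Bdnf and 0.44 for Ret/Gfra2, against -2.22 and 0.96 with 0.1 FPKM. The genes past the threshold numbered 3243 to 5037 with 1 library left out, against 5173 with all. Same-numbered CR and control libraries deviated from their group means with correlations of 0.0245, 0.0198 and 0.0454. Libraries of unlike number had lower ones, from -0.0428 to 0.0165. All of these correlations are small and do not establish or exclude pairing. With the replicate block 4445 genes passed, and the adjusted p was 0.00139 for Ret, 0.00541 for Gfra2, 0.00773 for Ntf3 and 0.0197 for Bdnf. Depth limits what can be said of Gdnf.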

Other observations

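Several family genes with a mean below 0.5 FPKM were not tested. Gfra3, the co-receptor gene for artemin, was at 0.274, 0.436 and 0.309 FPKM in CR replicates 1 to 3 and at 0.0333, 0.0553 and 0.101 FPKM in control replicates 1 to 3, from 1 to 24 reads per library, and its groups did not overlap. Gfral, the receptor gene for the hormone GDF15, was at 0.231, 0.133 and 0.399 FPKM in CR and at 0.975, 0.438 and 0.417 FPKM in control, with every CR value below every control value and 4 to 16 reads per library. Ntf4 had 0 to 6 reads per library. Artn, the ligand of the Gfra3 product, overlapped at 0.205 to 0.407 FPKM in CR and 0.119 to 0.326 FPKM in control.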
